A study of Mus musculus with 4 samples.

Results

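RUNX1 and H3K27me3 ChIP-seq peaks were examined at 8 mouse genes, Maf, Maff, Mafg, Mafk, Bach1, Bach2, Nfe2 and Nfe2l2, which encode transcription factors of the MAF and the cap'n'collar (CNC) and BACH families. The annotation (GENCODE release M21 on mm10) held 21911 protein-coding genes in all. A peak was counted at a gene where its summit, the position of highest signal, lay in the gene body or within 50 kb of it. A peak was further marked where the nearest annotated transcription start belonged to the gene. In this way 38 of the 18389 RUNX1 peaks in the -DOX-labelled list and 42 of the 21831 in the +DOX-labelled list were found at the 8 genes. The 2 lists labelled H3K27me3 gave 7 of 6356 and 8 of 7233 peaks.

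All 4 libraries came from haematopoietic progenitors, which are early blood cells, collected as floating cells from a culture started from mouse embryonic stem cells. The labels place them on day 2, while a later day stands in a legend of the study. Every library, the untreated one included, carried the same genotype, a Tet-on dominant-negative FOS (dnFOS). This peptide pairs with JUN proteins and keeps AP-1, the FOS-JUN dimer, off chromatin, and it is made when doxycycline (DOX) is added. The labels named 1 RUNX1 library treated with DOX (+DOX) and 1 untreated (-DOX). Whether the cells were 1 clone was not stated in the sources used here.

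The run name within each RUNX1 peak list gave the opposite treatment to its label. Names such as the +DOX-labelled library are used for this reason, and any direction between them turns around if the run names are right. The titles of the H3K27me3 libraries go against their treatment labels, so these were placed in no condition and are called by their titles, untr and DOX. The protocol given for them named the antibody against RUNX1. With 1 library per condition there was no replicate check, and no test was made. Because the depth of the libraries was unknown, a peak called in 1 RUNX1 list alone may be present but uncalled in the other.

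Expression was not measured in these libraries, so the cell type could be examined only through peaks at marker loci. Of 8 genes of blood progenitors, 6 had a RUNX1 peak in the gene body or within 50 kb in the -DOX-labelled list and 7 in the +DOX-labelled list, which is near the share of all protein-coding genes (73.5% and 75.7%) and so does not mark the cell type. Kit, the stem cell factor receptor, had none in either list, and Ptprc, which encodes CD45, had 1 in the +DOX-labelled list alone. The H3K27me3 lists had a peak at 0 of these 8 genes in the library titled untr and at 1, Gata2, in the library titled DOX. Among all protein-coding genes, 33.2% and 35.2% had one in the same kind of window. The neural genes Pax6, Neurog1, Nkx2-2 and Lhx2 each had an H3K27me3 peak within 1500 bp of a start in both H3K27me3 lists. Such a start peak was found for 11.7% and 11.1% of all protein-coding genes in the libraries titled untr and DOX. RUNX1 peaks were also called at neural starts, at Pax6 in both RUNX1 lists and at Lhx2 in the +DOX-labelled one.

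RUNX1 is the DNA-binding factor that is needed for blood cells to arise from endothelium, and H3K27me3 is a histone mark laid down by the Polycomb system at genes that are not in use. The small MAF proteins (MAFF, MAFG and MAFK) bind DNA but have no activation domain of their own. They pair with NFE2 or NRF2 (encoded by Nfe2l2), which activate, or with BACH1 or BACH2, which repress, and the DNA elements of these pairs contain a core that resembles an AP-1 site. NFE2 is known for its part in platelet formation and globin gene activity, NRF2 and BACH1 for the response to oxidants and haem, and BACH2 for lymphoid cells, while MAF itself is a large MAF with an activation domain, known from macrophages and T cells. Whether dnFOS pairs with any of these proteins was not measured here.

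The genomic sequence beneath 7 RUNX1 sites is given first, since the results return to them. Each was read from the GRCm38 (mm10) reference genome on the plus strand, 5′ to 3′, centred on the summit. Capitals mark consensus words found on either strand, namely TGTGGT and TGCGGT for RUNX, AGATAA and TGATAA for GATA factors, CAGGAAG for ETS factors, and TGACNNNGC for the antioxidant response element (ARE), the element of NRF2 and BACH1 with small MAFs. The sequences are those of the strongest member site (Nfe2), the strongest site upstream of Maff, the strongest intronic site of Bach2, the site whose rank moved most (Bach1, cut back where an exon's untranslated region began), the start of Nfe2l2, a site of Mafk called in 1 list, and a repeat at a site that met a peak of all 4 lists.
Nfe2, chr15:103258459-103258658: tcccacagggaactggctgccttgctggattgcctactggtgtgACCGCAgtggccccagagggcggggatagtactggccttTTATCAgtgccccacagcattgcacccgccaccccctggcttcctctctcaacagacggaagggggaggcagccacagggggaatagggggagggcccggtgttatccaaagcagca
Maff, chr15:79335327-79335526: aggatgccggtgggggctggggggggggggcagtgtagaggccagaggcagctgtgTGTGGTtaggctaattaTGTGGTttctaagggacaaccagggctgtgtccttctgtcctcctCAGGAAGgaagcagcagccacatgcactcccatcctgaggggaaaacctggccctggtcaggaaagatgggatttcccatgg
Bach2, chr4:32387975-32388174: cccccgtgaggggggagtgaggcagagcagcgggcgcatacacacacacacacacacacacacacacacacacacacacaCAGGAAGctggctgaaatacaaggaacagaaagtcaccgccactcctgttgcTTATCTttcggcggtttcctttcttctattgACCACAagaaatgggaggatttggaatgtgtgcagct
Bach1, chr16:87699057-87699229: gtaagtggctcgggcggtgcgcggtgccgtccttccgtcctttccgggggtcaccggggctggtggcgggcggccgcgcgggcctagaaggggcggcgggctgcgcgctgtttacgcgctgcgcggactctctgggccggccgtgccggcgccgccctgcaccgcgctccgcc
Nfe2l2, chr2:75703917-75704116: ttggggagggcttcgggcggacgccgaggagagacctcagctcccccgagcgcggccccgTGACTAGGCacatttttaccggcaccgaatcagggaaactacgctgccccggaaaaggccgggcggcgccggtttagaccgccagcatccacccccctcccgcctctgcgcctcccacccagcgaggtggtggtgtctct
Mafk, chr5:139789616-139789815: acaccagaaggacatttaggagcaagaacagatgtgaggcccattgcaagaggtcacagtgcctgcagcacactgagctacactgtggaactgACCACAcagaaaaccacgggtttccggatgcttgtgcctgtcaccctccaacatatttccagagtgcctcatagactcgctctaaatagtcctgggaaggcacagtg
Repeat upstream of Nfe2l2, chr2:75748451-75748650: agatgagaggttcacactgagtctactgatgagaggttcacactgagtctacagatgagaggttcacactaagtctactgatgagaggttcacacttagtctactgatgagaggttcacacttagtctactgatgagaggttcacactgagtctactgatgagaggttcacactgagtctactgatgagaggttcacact

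RUNX1 peaks were called at 7 of the 8 genes in both lists, the exception being Maf. All 7 had a RUNX1 peak within 1500 bp of one of their own transcription starts in both lists. Nearby RUNX1 peaks were common in these cells: 73.5% of protein-coding genes in the -DOX-labelled list and 75.7% in the +DOX-labelled list had one in the gene body or within 50 kb. A peak within 1500 bp of an own start was found for 43.4% and 46.8% of them. Set against these shares, 7 of 8 is close to the background for the window and above it for the start.

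Summits of the 2 RUNX1 lists were widened by 200 bp on either side, and those that touched were joined into 1 site. In all, 48 of 24972 sites lay at the 8 genes. Of these, 32 were called in both lists, 6 in the -DOX-labelled list alone and 10 in the +DOX-labelled list alone. Over all RUNX1 sites the shares were 56.8%, 14.8% and 28.4%. Among the 48, the nearest start was the member's at 21, of which 11 were shared, 2 were called in the -DOX-labelled list alone and 8 in the +DOX-labelled list alone. With 48 and 21 sites, these counts are too few to read as different from the shares of all sites. The split also depends on the rule for sharing. Where any overlapping peak counted, 37 of the 48 sites were shared. In that case 4 were in the -DOX-labelled list alone and 7 in the +DOX-labelled list alone. The other 27 sites lay nearest to a start of another gene, so that their assignment to the member rests on distance alone.

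Of the 48 sites, 27 lay within 1500 bp of a transcription start of any gene, against 53.9% of all RUNX1 sites. The summits fell in a coding exon at 4 sites, in an untranslated region at 11, in an exon of a non-coding RNA at 2, in an intron at 17 and between genes at 14. Of the 16 sites called in 1 list, 5 were covered in part by a peak of the other library with its summit elsewhere, while 11 were not. The +DOX-labelled list was the longer one, and over the whole series 66.9% of the sites without such an overlap were from it. At the 8 genes, 4 of the 11 were from the -DOX-labelled list and 7 (63.6%) from the +DOX-labelled list, near the share of the whole series. Of the 11, 5 had the member as the nearest start, and all 5 were from the +DOX-labelled list. So few sites cannot be read as different from that share.

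**Figure D1:**
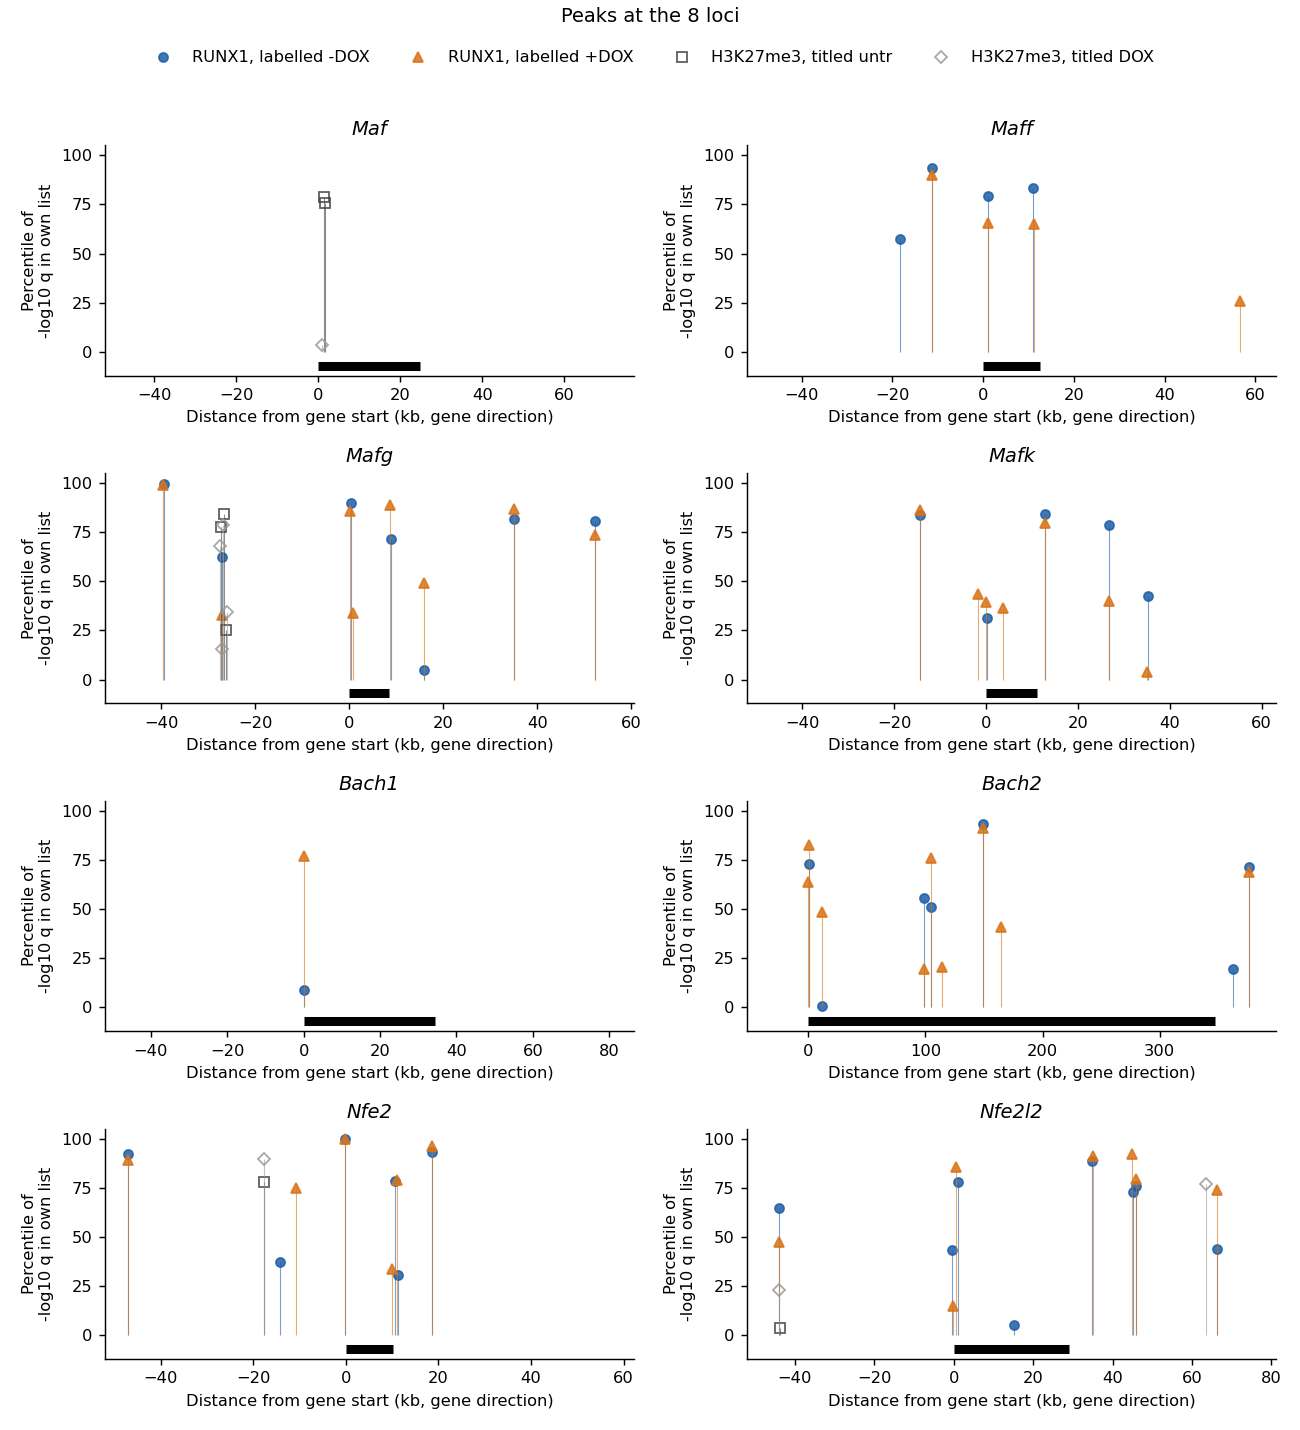
Peaks at the 8 genes, 1 panel per gene. The horizontal axis gives the distance of the summit from the gene start in kb in the direction of the gene, the vertical axis the percentile of the peak's -log10 q in its own list, and the black bar the gene body. Maf carries only H3K27me3 marks, Bach1 has a single RUNX1 site, and the Nfe2 start reaches the top of both RUNX1 lists.

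**Figure D2:**
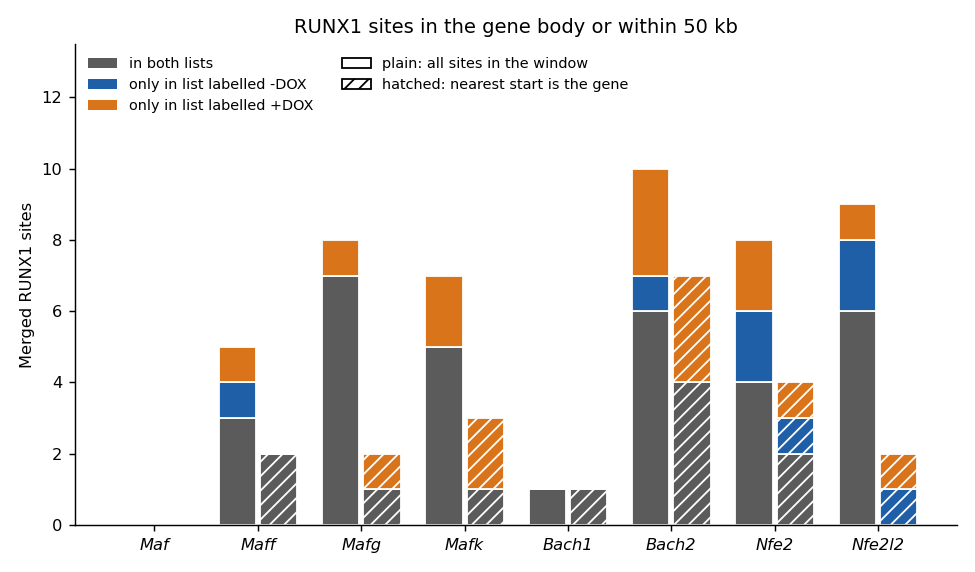
Merged RUNX1 sites per gene, as counts on the vertical axis, split by the list that called them. Plain bars hold all sites in the window and hatched bars those whose nearest start is the gene; Bach2 has 10 and 7, and Maf has none.

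Values of single peaks are given as the fold enrichment over the local background, as the -log10 of the q-value, and as the percentile of that -log10 q among the peaks of the same list. A percentile near 100 is among the strongest peaks of its list. Percentiles rather than folds are set side by side between libraries, because the depth was unknown.

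Among the small MAF genes, Mafg had the most sites with these settings, but with summits widened by 100 bp Mafk had 9 and Mafg 8, and with windows of 10 kb both had 4. Mafg (ENSMUSG00000051510.13, chr11:120625117-120633600, minus strand) lay among 8 RUNX1 sites, 7 of them shared. Per 100 kb of window it had 6.45 peaks in the -DOX-labelled list and 7.37 in the +DOX-labelled list, at the 96.6 and 96.8 percentiles of protein-coding genes. The median gene had 1.35 and 1.66 peaks per 100 kb. Of the 8 sites at Mafg, 6 lay at the starts of other genes.

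The start of Mafg was covered by a shared site in its untranslated region, 186 bp from a start, with a fold of 7.27 and a -log10 q of 28.9 in the -DOX-labelled library and 6.84 and 23.4 in the +DOX-labelled library. These are the 90.0 and 85.7 percentiles, a high rank in both. A second site, 763 bp from a start in an intron of Mafg, was called in the +DOX-labelled list alone, with a fold of 3.72 at the 33.9 percentile, and no peak of the other library overlapped it. The strongest peak in the window of Mafg belonged to Aspscr1, which encodes a tethering protein for a glucose transporter, with a -log10 q of 104 and 100 (percentiles 99.3 and 99.2).

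Maff (ENSMUSG00000042622.14, chr15:79346621-79359076, plus strand) had 5 sites, of which 3 were shared. Its start site, in an untranslated region 228 bp from a start, had a -log10 q of 17.6 in the -DOX-labelled library and 12.2 in the +DOX-labelled library (percentiles 79.1 and 65.4). A further site in the coding exon of the gene had 20.7 and 12.1 (percentiles 83.3 and 65.2). Both had a lower percentile in the +DOX-labelled library, with differences of -13.7 and -18.1 points.

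The strongest RUNX1 site of the Maff window lay between genes, 11194 bp upstream of the gene start, with a fold of 10.25 and 9.43 and a -log10 q of 37.4 and 29.5. At the 93.5 and 90.1 percentiles it ranked high in both libraries. Its sequence, printed above, holds the RUNX word TGTGGT at 2 positions, starting 44 and 27 bp before the summit, and an ETS word 18 bp after it. The nearest start was that of Pla2g6, a phospholipase gene, 7037 bp away, so that the rule did not mark it as nearest to Maff. Of the remaining sites, 1 lay at the start of Pla2g6 (list labelled -DOX alone, percentile 57.6) and 1 at the start of Tmem184b (list labelled +DOX alone, percentile 26.0).

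Mafk (ENSMUSG00000018143.10, chr5:139791513-139802653, plus strand) had 7 sites, 5 shared and 2 in the +DOX-labelled list alone. Its start was weakly covered. The shared site there had a -log10 q of 5.79 in the -DOX-labelled library and 7.11 in the +DOX-labelled library (percentiles 31.6 and 39.5), with summits 292 bp apart. The sites in the +DOX-labelled list alone lay 1797 bp upstream of the gene start, between genes (fold 4.49, percentile 43.3), and in an intron 2285 bp from the nearest Mafk start (fold 4.05, percentile 36.2). Each contained the RUNX word TGTGGT, the upstream one 7 bp before its summit, as printed above. No peak of the -DOX-labelled library overlapped either of them.

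The other 4 sites at Mafk lay nearest to Ints1, Tmem184a and Psmg3. Of the 2 nearest to Tmem184a, 1 went from the 78.6 to the 40.1 percentile from the -DOX-labelled library to the +DOX-labelled one. The site at the start of Psmg3, which encodes a proteasome assembly chaperone, went from 42.3 to 3.66, with summits 273 bp apart. These were changes of -38.5 and -38.7, and 2.93% and 2.91% of all shared sites went down by as much.

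Maf (ENSMUSG00000055435.6, chr8:115682942-115707794, minus strand), the only large MAF among the 8, was the gene without RUNX1. The nearest peak was 803 kb from the gene body in the -DOX-labelled list, near Wwox, and 797 kb away on the other side in the +DOX-labelled list, near Dynlrb2. Both were weak, at the 27.1 and 20.8 percentiles. A window without a peak says only that none was called at the depth of these libraries.

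Maf was also the only one of the 8 with an H3K27me3 peak at its own start. The library titled untr had peaks in its coding exon, 668 and 937 bp from a start, with folds of 7.91 and 7.62 and a -log10 q of 11.5 and 10.6 (percentiles 79.0 and 75.5). The library titled DOX had 1 peak, in the untranslated region 101 bp from a start, with a fold of 4.00 and a -log10 q of 1.94, at the 3.73 percentile and so among the weakest of its list. Of all protein-coding genes, 11.7% in the library titled untr and 11.1% in the library titled DOX had a peak within 1500 bp of a start.

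Both repressors had a RUNX1 site at the start, but their windows differed. Bach1 (ENSMUSG00000025612.5, chr16:87698945-87733346, plus strand) had a single site in its window, 126 bp from a start in the first part of an intron. The -log10 q was 3.48 with a fold of 3.70 in the -DOX-labelled library, and 16.8 with a fold of 7.06 in the +DOX-labelled library. This took it from the 8.73 to the 77.1 percentile, from near the bottom of 1 list to the upper part of the other. Of all shared sites, 0.303% went up by as much as these 68.4 points. Its window, with 79.5% G and C, held none of the 10 words searched, and the sequence printed above shows no capitals. At 0.744 peaks per 100 kb in both lists, Bach1 lay below the median gene.

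Bach2 (ENSMUSG00000040270.16, chr4:32238804-32586108, plus strand), with a gene body of 347 kb, had 10 sites, of which 6 were shared, 1 was in the -DOX-labelled list alone and 3 were in the +DOX-labelled list alone. For its length this was an ordinary count, with 1.56 and 2.01 peaks per 100 kb, at the 53.5 and 58.9 percentiles of protein-coding genes. A shared intronic site 466 bp from a start had a -log10 q of 14.4 and 20.5 (percentiles 72.8 and 82.7). Beside it, in the untranslated region 42 bp from a start, a site in the +DOX-labelled list alone reached the 64.0 percentile, and its peak was overlapped by 1 of the -DOX-labelled library with its summit 719 bp away.

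The strongest RUNX1 site of Bach2 was intronic, 149271 bp into the gene and 29360 bp from the nearest Bach2 start. Its fold was 10.82 in the -DOX-labelled library and 9.57 in the +DOX-labelled library, with a -log10 q of 37.1 and 31.6 (percentiles 93.4 and 91.1). It stood high in both, and its sequence carried an ETS, a GATA and a RUNX word within 200 bp, beside a CA repeat. Of the 48 sites it was the only one to hold these words together.

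The remaining intronic sites of Bach2 went different ways between the libraries. Sites 99007 and 104781 bp into the gene changed from 55.5 to 19.5 and from 51.3 to 76.1 in percentile. Those called in the +DOX-labelled list alone, 114325 and 164789 bp into the gene, had folds of 4.46 and 5.30 at the 20.8 and 41.1 percentiles and were not overlapped by a peak of the other library. A shared site 11938 bp into the gene lay nearest to the non-coding transcript Bach2it1 and went from 0.818 to 48.7, with summits 239 bp apart. Downstream of the gene, the site in the -DOX-labelled list alone lay in the coding exon of Gja10, a connexin gene (percentile 19.6), and a shared site lay at the start of Casp8ap2 (percentiles 71.5 and 68.7).

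Nfe2 had by far the strongest RUNX1 peak of the 8 genes at its start. For Nfe2 (ENSMUSG00000058794.12, chr15:103248212-103258403, minus strand) the summit lay 156 bp from a start, outside the gene body. The fold was 19.23 with a -log10 q of 212 in the -DOX-labelled library, and 18.43 with a -log10 q of 200 in the +DOX-labelled library (percentiles 99.9 and 99.8). Protein-coding genes with a RUNX1 peak within 1500 bp of a start numbered 9509 and 10264, and when ranked by the strongest such peak Nfe2 was in place 3 and place 8. The rank and the height were alike in both libraries, and exchanging the labels does not alter this. The window held a GATA word 17 bp before the summit, and 56 bp before it the RUNX word TGCGGT on the minus strand, but no TGTGGT.

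**Figure D3:**
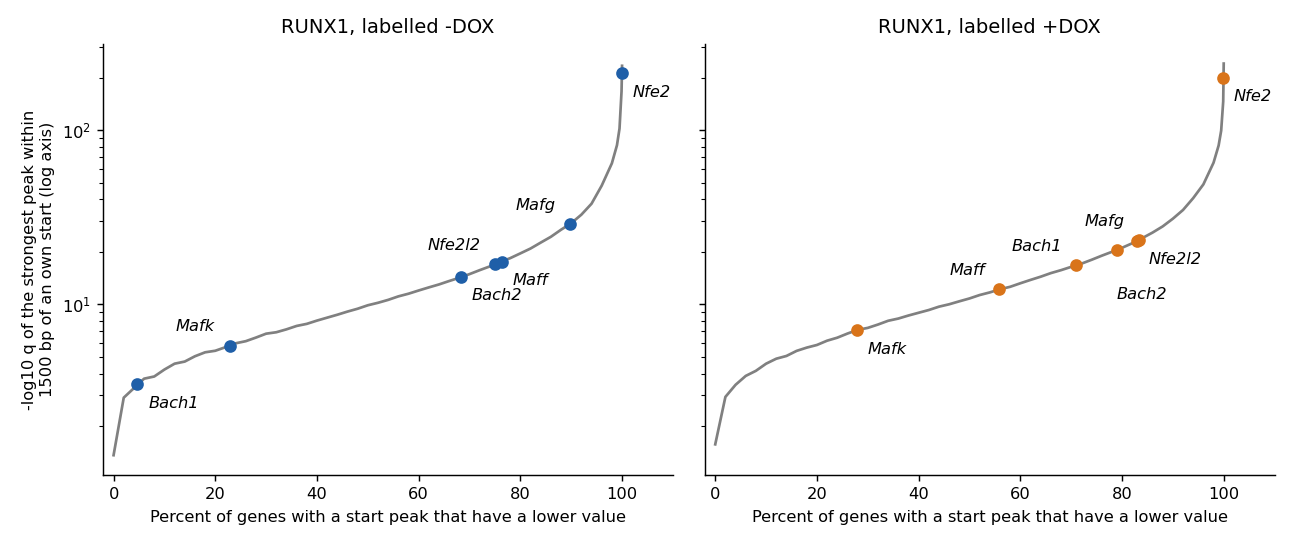
Strongest RUNX1 peak within 1500 bp of an own start. The grey line gives its -log10 q (vertical, log axis) over all protein-coding genes that have such a peak, ordered along the horizontal axis by the percent of these genes with a lower value, and points mark the members in the -DOX-labelled library (left) and +DOX (right). Nfe2 sits at the upper end of both, and Bach1 lies near the lower end on the left and in the upper part on the right.

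Downstream of Nfe2, RUNX1 sites near the end of the gene were called differently in the libraries. A shared site between genes, 4212 bp from the nearest Nfe2 start, went from a -log10 q of 5.67 to 17.9 (percentiles 30.8 and 79.0). A neighbouring site, 3624 bp from that start, was in the -DOX-labelled list alone with a fold of 4.75 at the 78.2 percentile. The last, 3129 bp from it in an untranslated region of Nfe2, was in the +DOX-labelled list alone with a fold of 3.28 at the 33.7 percentile. The +DOX-labelled peak of the shared site was 1234 bp wide and also spanned the summit of the neighbouring -DOX-labelled peak, so that the strongest peaks there were at the 78.2 and 79.0 percentiles, while the summits lay in different places. The last site met the -DOX-labelled peak at its edge only, and its summit was not covered by it.

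Of the other sites at Nfe2, 2 lay nearest to Copz1, a coat protein gene. That in the +DOX-labelled list alone, 10705 bp upstream of Nfe2, had a fold of 7.39 at the 74.7 percentile, the highest percentile of any of the 11 sites called in 1 list without an overlap, and held a RUNX, an ARE and an ETS word. That in the -DOX-labelled list alone lay 59 bp from the Copz1 start at the 37.0 percentile. The shared site at the start of Cbx5, which encodes a heterochromatin protein, had percentiles of 93.3 and 96.0, and a shared intronic site of Gm49482 had 92.3 and 88.9.

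Nfe2l2 (ENSMUSG00000015839.6, chr2:75675513-75704641, minus strand) had 9 sites, of which 6 were shared, 2 were in the -DOX-labelled list alone and 1 was in the +DOX-labelled list alone. At 6.20 and 5.42 peaks per 100 kb it was at the 96.2 and 91.3 percentiles of protein-coding genes. Its start was covered in both libraries, but with summits 486 bp apart, so that the rule split it into a site for each list. In the -DOX-labelled library the summit was 958 bp from a start in an intron, with a fold of 5.50 and a -log10 q of 17.0 (percentile 78.0). In the +DOX-labelled library it was 472 bp from a start, with a fold of 6.47 and a -log10 q of 23.1 (percentile 85.5), and each of the peaks overlapped 1 of the other library. These sites therefore do not by themselves show RUNX1 gained or lost at the gene. The second one carried an ARE word, TGACTAGGC, starting 40 bp before its summit.

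On the other side of the start, a shared site 377 bp from Nfe2l2 lay closer to the non-coding gene E030042O20Rik. Its peaks were at the 43.3 percentile in the -DOX-labelled library and the 14.7 in the +DOX-labelled library. The summits were 188 bp apart, and neither lay in the peak of the other library. These ranks are therefore those of adjoining peaks joined by the rule. A weak intronic site, at the 5.05 percentile of the -DOX-labelled list alone, was 14970 bp from an Nfe2l2 start and nearer to that of Gm24996. Upstream by 43910 bp, a site met a peak of all 4 lists, with RUNX1 percentiles of 64.7 and 47.5 and H3K27me3 percentiles of 3.73 and 23.1. The H3K27me3 peak of the library titled untr met only the edge of the site, outside the printed bases. As the printed sequence shows, the centre of the site is a tandem repeat. Its bases were identical to those 26 bp further on at 96.6% of positions. The part of the repeat in these peak calls was not tested. The other 4 sites lay downstream of the gene, with Hnrnpa3, which encodes an RNA-binding protein, as the nearest protein-coding gene, and had percentiles from 44.0 to 88.8 in the -DOX-labelled library and from 73.8 to 92.0 in the +DOX-labelled library.

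Across the 32 shared sites, 15 had a higher and 17 a lower percentile in the +DOX-labelled library. The median change was -0.0339 points, beside 1.83 over all 14177 shared sites, of which 58.0% were higher. Over all shared sites, the middle of the changes ran from -7.06 (25th percentile) to 15.5 (75th), and from -31.6 (5th) to 41.8 (95th). Bach1 with 68.4, the downstream site of Nfe2 with 48.2, which sets aside the stronger neighbouring peak described above, the Bach2it1 site with 47.9 and the Pcyt2 site at Mafg with 44.1 went up past this range. The Mafk sites near Tmem184a and Psmg3 and the Bach2 site 99007 bp into the gene, with -36.0, went down past it. At the Bach2it1 and Psmg3 sites the summits of the libraries were 239 and 273 bp apart. There the +DOX-labelled summit lay outside the -DOX-labelled peak, so these changes are not those of a single position. No common direction was seen over the 8 genes.

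**Figure D4:**
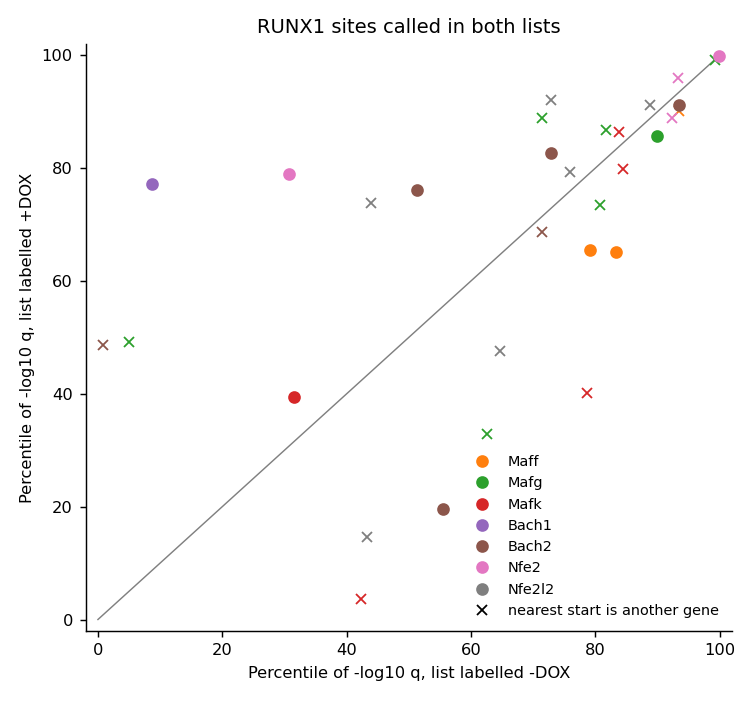
Shared RUNX1 sites at the 7 genes that have them. Each mark is a site, with the percentile of its -log10 q in the -DOX-labelled list on the horizontal axis and in the +DOX-labelled list on the vertical axis, circles where the nearest start is the member and crosses where it is another gene, and a diagonal of equal percentiles. The strongest sites of Nfe2 and Bach2 lie close to the diagonal, and the Bach1 circle lies farthest above it.

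H3K27me3 peaks were found in the windows of 4 of the 8 genes in each list (Maf, Mafg, Nfe2 and Nfe2l2), where 33.2% of protein-coding genes had one in the library titled untr and 35.2% in the library titled DOX. Apart from those of Maf, none lay within 1500 bp of a member's start. The peaks at Mafg, 3 and 4 in number, surrounded the start of Notum, which encodes a secreted inhibitor of WNT proteins, and reached the 84.3 and 78.7 percentiles. That at Nfe2 was a narrow peak in an intron of Copz1, 119 and 80 bp wide (percentiles 77.9 and 89.4). At Nfe2l2, the peak at the site of the repeat described above was joined in the library titled DOX by a peak of 83 bp between genes at the 77.1 percentile.

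Of the 48 RUNX1 sites, 2 were overlapped by an H3K27me3 peak, the start of Notum and the repeat upstream of Nfe2l2, each by a peak of both libraries. At the repeat, the peak of the library titled untr reached only the edge of the site. Over all RUNX1 sites the shares were 6.19% for the library titled untr and 6.56% for that titled DOX. The Notum site had RUNX1 percentiles of 62.5 and 32.8. No site whose nearest start was a member lay under H3K27me3. For peaks of a mark that spreads over broad domains, the median widths of 180 and 122 bp in these lists are short, and the protocol text named a RUNX1 antibody, so the H3K27me3 calls are given as deposited.

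Consensus words were searched on both strands in the 200 bp at each summit, and their shares were set beside those of all 24972 sites. The RUNX word TGTGGT was present at 12 of the 48 member sites (25.0%), beside 29.0% of all sites. Within 1500 bp of a start it was at 5 of 27 (18.5%, beside 15.2%), and farther away at 7 of 21 (33.3%, beside 45.2%). When TGCGGT was added, a search chosen after the values were seen, the shares became 35.4% and 37.4%.

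The words of AP-1 and of the families themselves were at shares above and below those of all sites. The AP-1 word (TGACTCA or TGAGTCA) was found at 1 of the 48 sites, the Bach2it1 site (2.08%, beside 4.97%). The longer NF-E2 word (TGACTCAGC or TGAGTCAGC), which contains the AP-1 word, was at 0 (beside 1.51%). The ARE, TGACNNNGC, which the first of these NF-E2 words also matches, was at 7 (14.6%, beside 10.7%), and the short word of small MAFs, TGCTGA, at 6 (12.5%, beside 14.0%). With 48 sites, each match moves a share by 2.08 percentage points.

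Of the words of other factors, AGATAA or TGATAA, those of GATA factors, were at 7 sites (14.6%, beside 17.7%), of which 6 were farther than 1500 bp from a start (28.6% of such sites, beside 29.4% overall). ETS words (CCGGAAG or CAGGAAG) were at 9 (18.8%, beside 21.3%), and the C/EBP word TTGCNNAA at 5 (10.4%, beside 6.46%). The PU.1 word GAGGAAGT and the cAMP response element TGACGTCA were at 0, beside 4.66% and 1.01% of all sites. A missing word says only that these letters were not in the window.

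**Figure D5:**
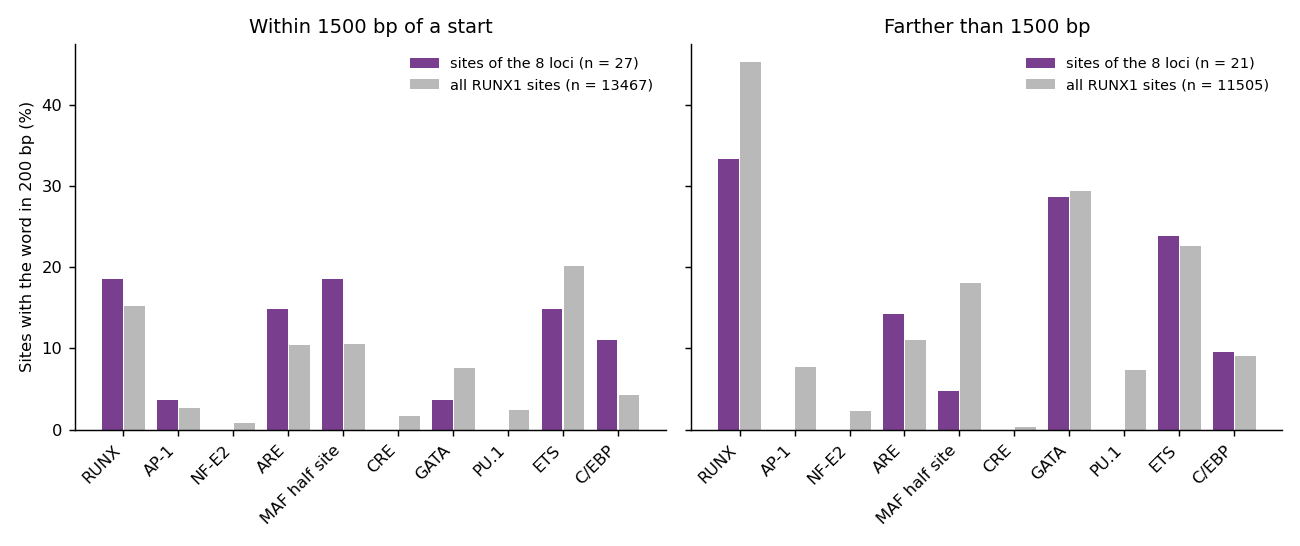
Share of RUNX1 sites with each consensus word in the 200 bp at the summit, in percent on the vertical axis, for sites within 1500 bp of a start (left) and farther away (right). Purple bars are the sites of the 8 genes (27 and 21) and grey bars all RUNX1 sites; at the distal member sites the RUNX word is at 33.3% beside 45.2%, and for 4 words (AP-1, NF-E2, CRE and PU.1) no distal member site has a match.

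Of relatives outside the 8 genes, Mafa, Nrl, Nfe2l1 and Nfe2l3 each had a RUNX1 peak in the window in both lists. This is common, as 73.5% and 75.7% of all protein-coding genes had one in the -DOX-labelled and the +DOX-labelled list. At the start, Mafa and Nfe2l1 had one in both lists, Nrl in the -DOX-labelled one alone and Nfe2l3 in neither. For all protein-coding genes the shares at the start were 43.4% and 46.8%. Mafa, Nrl and Nfe2l3 had an H3K27me3 peak at the start in both H3K27me3 lists, and Nfe2l1 had none. Mafa and Nrl encode large MAFs, as Maf does, but Nfe2l3 is not a MAF gene. No small MAF gene had an H3K27me3 peak at its start in either list. As only 11.7% and 11.1% of all protein-coding genes had one, its absence at so few genes says little.

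Of the genes that control the amount of NRF2, 5 were examined. Keap1, the adaptor that hands NRF2 to the ubiquitin ligase of Cul3 and Rbx1, along with Btrc, a second ligase adaptor, and Sqstm1, which binds KEAP1, each had a RUNX1 peak at the start in both lists, where 43.4% and 46.8% of all protein-coding genes had one. None had an H3K27me3 peak there, beside 11.7% and 11.1% of all genes with one, and 5 genes are too few to read either count as a property of the group. The start peak of Keap1 was at the 60.5 percentile in the -DOX-labelled library and 84.3 in the +DOX-labelled library, and that of Rbx1 at 94.7 and 89.7.

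Of 13 genes that NRF2 activates or BACH1 represses, 12 and 13 had a RUNX1 peak in the window, beside 73.5% and 75.7% of all genes, and 10 in each list had one at the start, beside 43.4% and 46.8%. With 13 genes, these counts are too few to read as a property of the group. The start peaks of Gclm, a subunit of the glutathione-making enzyme, and of Ftl1, the ferritin light chain, were at the 99.6 percentile in the -DOX-labelled library and the 99.5 in the +DOX-labelled library. Start peaks of other genes in the list ranked low, such as 1 at the 4.94 percentile in the -DOX-labelled library and 1 at the 16.0 in the +DOX-labelled library. Hmox1, haem oxygenase, had 2 and 1 peaks in the window and none at the start. Slc7a11, the cystine transporter, had no peak in the -DOX-labelled list and 2 in the +DOX-labelled list, of which the start peak was at the 46.8 percentile. None of the 13 had an H3K27me3 peak at the start, where 11.7% and 11.1% of all genes had one.

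All 6 genes of erythroid cells and megakaryocytes that NFE2 is known to act on (Hbb-bt, Hbb-bs, Hba-a1, Tubb1, Tbxas1 and Rab27b) had RUNX1 peaks in the window in both lists, 35 and 33 in number, beside 73.5% and 75.7% of all genes with a peak, and the windows of the beta-globin genes overlap. At the start, Tbxas1 and Rab27b had one in the -DOX-labelled list and Tbxas1 in the +DOX-labelled list, beside 43.4% and 46.8% of all genes. Tbxas1, thromboxane synthase, had start peaks at the 72.6 and 68.2 percentiles.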

How the data were processed

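Per the labels and the study's methods, chromatin of the progenitors was crosslinked with disuccinimidyl glutarate and formaldehyde. For the RUNX1 libraries the authors used Trimmomatic 0.39 for trimming, Bowtie2 2.3.5 for alignment to mm10, Picard 2.20.2 against duplicates and MACS2, with a q-value limit of 0.05, for peaks per library. The submitters' processing notes name Bowtie2 2.2.9 and MACS2 2.1.1. An input control and the handling of the H3K27me3 reads are not given in the sources used here. The deposited columns of a peak hold a ratio, its fold enrichment over local background, and its p-value and q-value as −log10. The lists may precede blacklist and repeat filters, and depth is unknown.

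Peaks on assembled chromosomes were used, which left out from 146 to 300 peaks per list. Summits were assigned to genes and parts of genes with GENCODE M21, and RUNX1 summits extended by 200 bp were merged into sites. Percentiles were computed within each list, and words were searched in GRCm38. Scripts ran in Python 3.11.15 with numpy 2.4.6. On simulated data, 100% of 3000 site classes and 100% of 1000 planted words were recovered. The simulated sites stood far apart, with shared summits closer together than the extension, so split starts and joined neighbours were not tried. The words were planted among C and G bases alone.

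The 8 genes, the gene lists and the words were chosen with earlier results of these data known. The genes named are the 8 members with their strongest peaks, every site in 1 list nearest to a member, and list members where 5 or fewer had or lacked a peak. Some members of the lists are not reported here. Other genes were named after their values were seen, among them the neighbours at the sites, and Keap1, Rbx1, Gclm, Ftl1 and Hmox1 with their values. Alternatives changed the window, the q-value minimum, the extension, the sharing rule, list length, the labels, the set of starts and the word window.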

Additional observations from a re-analysis of the deposited data

How the results depend on the processing

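No paired analysis was possible because each condition had 1 library and no test was made. Of 170 values under alternatives, 139 were classed as unchanged. For a count this meant within 1.5 times the reported one, and for a word share inside the Wilson confidence interval of the reported share. Some of the 139 could not have moved, so the total does not measure robustness. Exchanging the libraries leaves shared and per-gene counts as they are. Counting protein-coding starts only, or any overlapping peak as shared, leaves the sites per gene. Adding a RUNX word leaves the shares of other words. Under every alternative run, 7 genes had a RUNX1 site. With windows of 10 kb, 18 sites were shared and 3 were in the list labelled -DOX alone, instead of 32 and 6, and with 100 kb 18 were in the list labelled +DOX alone, instead of 10. Sites per gene at 10 kb were 2 for Maff, 4 for Mafg, 4 for Mafk, 5 for Nfe2 and 5 for Nfe2l2, instead of 5, 8, 7, 8 and 9, and at 100 kb 10 for Maff and 16 for Mafg. Requiring a −log10 q of at least 10 left 19 shared sites and 13 nearest to a member, instead of 21, with Maff, Mafk and Bach2 at 3, 3 and 5 sites. Extending summits by 100 bp gave 10 sites in the list labelled -DOX alone. Exchanging the libraries gave 10 in the list labelled -DOX alone and 6 in that labelled +DOX alone. For H3K27me3, windows of 10 kb left 2 and 1 peaks in the lists titled untr and DOX, instead of 7 and 8, and 1 gene with a peak in both, instead of 4, and windows of 100 kb gave 15 and 18. A −log10 q of at least 5 left 4 peaks in the list titled DOX and 2 genes with a peak in both lists, and at least 10 left 1 and 1. Counting protein-coding starts only, 5 H3K27me3 peaks were nearest to a member, instead of 3. With 400 bp at the summit, ETS words were at 37.5% and ARE words at 33.3% of sites, as a longer window must allow. GATA words were then at 25.0% and the AP-1 word at 10.4%, instead of 14.6% and 2.08%, which still lay inside the interval. At the 31 sites with a −log10 q of at least 10 the AP-1 word was at 0. The unknown depth limits every peak called in 1 list.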
